A study of Homo sapiens with 24 samples.

Results

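Very long introns were taken here as introns of at least 20000 bases in the intron tables of 24 libraries from RKO cells, a human colon carcinoma line. Of 233113 introns in the tables, 21615 were given the class clean by the intron caller and reached this length. The class does not mean that no exon lies inside the intron, and exons found inside are counted below. The 8487 introns described below are those of the 21615 whose intron depth plus spliced reads averaged at least 20 over the 12 nuclear libraries. They were chosen by annotation, length and this minimum of reads, so no difference between groups entered the choice. The introns just outside and just inside the minimum averaged 19.97 and 20, and the longest clean intron below the length limit had 19998 bases. In all comparisons with shorter introns, the 121786 clean introns under 20000 bases that met the same minimum were used.

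The cells carried a doxycycline-inducible Cas9 and a guide that targets ERH (sgERH) or, as the editing control, one that cuts the safe-harbour site AAVS1 (sgAAVS1). All cells received doxycycline at 100 ng/mL for 5 days and then either cycloheximide (CHX) at 25 µg/mL, which stops translation, or its solvent DMSO for 4 h. Nuclei and cytoplasm were separated and polyadenylated RNA was sequenced, which gave 8 groups of 3 biological replicates: sgERH CHX, sgAAVS1 CHX, sgERH DMSO and sgAAVS1 DMSO in the nucleus, and the same 4 in the cytoplasm. Every group was thus the same line, was dox-treated and expressed Cas9, and the sgERH cells were an edited pool in which ERH RNA was still present.

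Intron retention (IR) is the persistence of an intron in RNA that is otherwise processed, and polyadenylated RNA that keeps an intron is mostly held in the nucleus or degraded. Long introns take many minutes to transcribe, so polyadenylated nuclear RNA can hold them in several states, and the first intron of a human gene is often its longest. ERH is a small conserved nuclear protein that binds RNA-processing factors and is needed for the splicing of particular transcripts, among them those of DNA repair and mitosis genes. CHX blocks nonsense-mediated decay, which depends on translation and removes many transcripts with retained introns from the cytoplasm.

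ERH RNA averaged 78.7 ± 13.9 CPM in sgERH cytoplasm with DMSO, against 158 ± 12.1 CPM in sgAAVS1 cytoplasm with DMSO (SD, n = 3 each), and the ranges did not overlap. CPM are counts scaled to library totals that were adjusted by TMM over all 24 libraries. In the nucleus with DMSO it averaged 12.2 ± 1.66 CPM in sgERH and 17.05 ± 3.31 CPM in sgAAVS1 cells. With CHX it averaged 76.5 ± 11.1 CPM in sgERH and 127 ± 8.5 CPM in sgAAVS1 cytoplasm. In the nucleus with CHX the groups overlapped, at 12.6 ± 3.02 CPM in sgERH and 12.9 ± 0.607 CPM in sgAAVS1 cells. Transcript counts per library, in units of 1e+06, were 27.8 to 41.8 in nuclear libraries and 43.98 to 79.5 in cytoplasmic ones. Summed over MALAT1, NEAT1 and KCNQ1OT1, the group means were 8806 to 11526 CPM in the nucleus and 364 to 629 CPM in the cytoplasm. Of 6 epithelial markers, KRT8, KRT18, CDX2 and EPCAM were present while CDH1 and VIL1 stayed under 1 CPM in every library. Summed fibroblast markers reached at most 4.58 CPM, and the leukocyte markers PTPRC and CD3E were at or near 0, although CD68 was present. The nuclear library of sgERH CHX replicate 2 stood apart, with a median IR ratio of the very long introns of 0.0037 against 0.0108 and 0.0206 in replicates 1 and 3 of that group.

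The splice sites of 7 very long introns called between sgERH and sgAAVS1 nuclei with DMSO are shown as examples of either direction. The letters are those at the annotated ends of each intron. In the RNF103-CHMP3, ANTXR2 and ARID1A introns few or no spliced reads joined these ends (below). Each 5′ site gives the last 3 exon bases and the first 6 intron bases, and each 3′ site gives the last 20 intron bases and the first 3 exon bases, read 5′ to 3′ on the strand of the gene in GRCh38 (hg38). Capitals mark the first and the last 2 bases of the intron. The introns were RNF103-CHMP3 intron 2 (chr2:86620470-86688231, minus strand), MSH4 intron 7 (chr1:75822582-75848208, plus), ADCY3 intron 2 (chr2:24872720-24918312, minus), an ANTXR2 intron outside the canonical transcript (chr4:80071655-80097499, minus), CDK8 intron 4 (chr13:26353881-26382813, plus), an ARID1A intron outside the canonical transcript (chr1:26696101-26729650, plus) and the last intron of PIGN (chr18:62045980-62072672, minus). The first 3 had more retention in sgERH nuclei with DMSO and the other 4 had less.
RNF103-CHMP3 5′ site: ctgGTgagt
RNF103-CHMP3 3′ site: tattcttttcctttcttcAGgtg
MSH4 5′ site: cagGTaaat
MSH4 3′ site: catttgtttgtttgtttcAGtta
ADCY3 5′ site: gagGTgagt
ADCY3 3′ site: tcttcttccttggggtgcAGatc
ANTXR2 5′ site: tagGTaaat
ANTXR2 3′ site: agttcaatttcatctttcAGgtc
CDK8 5′ site: ttgGTaagt
CDK8 3′ site: acactattttgtttccacAGaaa
ARID1A 5′ site: cagGCaagg
ARID1A 3′ site: aaatgctctttattttgtAGcca
PIGN 5′ site: aagGTatag
PIGN 3′ site: atctttttctccttttgcAGcat

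Of the 8485 very long introns on the main chromosomes, 8396 began with GT, 83 with GC, as the ARID1A intron does, and 3 ran from AT to AC. AG was the last pair of bases in 8478. The 18 bases before the final AG held a median of 14 pyrimidines, and the introns had a median GC content of 40.6% (quartiles 38.3 and 44.2%). Their median length was 34435 bases and the longest had 848959 bases. In length, 3339 lay at 20 to 30 kb, 2859 at 30 to 50 kb, 1756 at 50 to 100 kb and 533 at 100 kb or more.

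The introns lay in 3051 genes, of which 1232 held 1 and 515 held 5 or more, and 8461 of them lay in protein-coding genes. They were not separate regions: 5304 shared a start or an end with another, and together they formed 4654 non-overlapping loci. Of 3938 that were introns of a canonical transcript (Ensembl 110, GENCODE 44), 1187 were its first intron (30.1%), against 6.17% of 95214 shorter introns. An exon of the host gene from another transcript lay inside 6715, an exon on the opposite strand inside 2963, and an exon of another gene on the same strand inside 1967.

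The IR ratio is the intron depth, the caller's estimate of read coverage per intron base, divided by that depth plus the spliced reads, which are the larger of the counts of reads spliced at the left and at the right end. Reads spliced from an end to any partner count, so an intron that shares an end with a more used one is measured against the spliced reads of both. In 3434 of the very long introns at least 50% of the spliced reads joined the 2 ends of the intron itself (own-junction reads), in 4115 under 10% did, and 1836 had no such read in the nuclear libraries. The caller marked 3423 to 4067 of them per nuclear library as low in coverage and 1568 to 2600 as unevenly covered. Depth was 0 in all nuclear libraries for 407 of the introns and in all cytoplasmic libraries for 6177.

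In the nucleus the very long introns had a lower median IR ratio than shorter ones in each group. Their median IR ratio over introns averaged 0.0117 ± 0.0085 in sgERH CHX, 0.0343 ± 0.0014 in sgAAVS1 CHX, 0.0241 ± 0.0062 in sgERH DMSO and 0.0354 ± 0.0039 in sgAAVS1 DMSO nuclei (SD, n = 3 each). Introns under 1 kb had 0.0374, 0.0613, 0.0624 and 0.0726 in the same 4 groups. Per library with DMSO, the medians of the very long introns were 0.0170, 0.0284 and 0.0269 in sgERH nuclei, against 0.0334, 0.0398 and 0.0328 in sgAAVS1 nuclei. All 3 sgERH values lay below the lowest sgAAVS1 value. The share of very long introns with an IR ratio of at least 0.05 was 20.5 ± 5.69% in sgERH CHX, 39.8 ± 0.690% in sgAAVS1 CHX, 30.01 ± 4.36% in sgERH DMSO and 38.9 ± 3.09% in sgAAVS1 DMSO nuclei. No test was made of these levels, since introns are not replicates.

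Among the very long introns themselves the median was lower at greater length. From 20 to 30 kb it was 0.0147 in sgERH CHX, 0.0391 in sgAAVS1 CHX, 0.0260 in sgERH DMSO and 0.0382 in sgAAVS1 DMSO nuclei, and at 100 kb or more it was 0.0064, 0.0226, 0.0202 and 0.0307 in the same groups. This order did not hold among introns with at least 50% own-junction reads, where sgAAVS1 DMSO nuclei had 0.0296 at 20 to 30 kb and 0.0441 ± 0.0072 at 100 kb or more (161 introns), and sgERH DMSO nuclei had 0.0196 and 0.0265. The order by base composition differed between treatments. The third of the introns highest in GC had a median of 0.0278 in sgAAVS1 CHX and 0.0377 in sgAAVS1 DMSO nuclei, whereas the third lowest in GC had 0.0394 and 0.0325 in these groups.

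**Figure D1:**
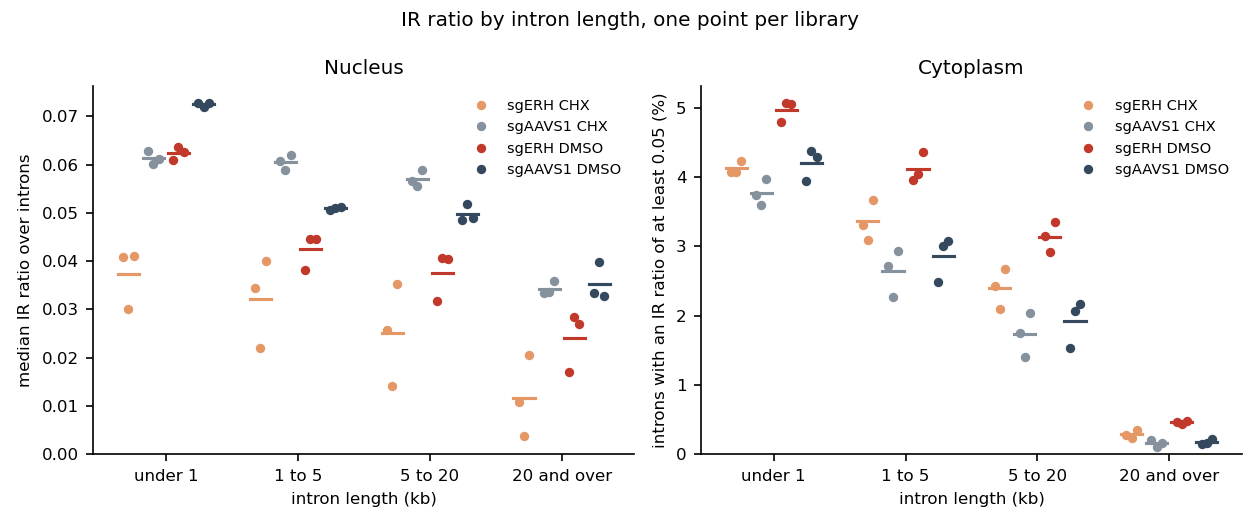
The left panel plots the median IR ratio over introns (0 to 1) by intron length class in the nucleus, and the right panel the percent of introns with an IR ratio of at least 0.05 in the cytoplasm. Each point is 1 library and each short bar is the mean of the 3 libraries of a group. Very long introns sit lowest in both panels, with nuclear group means of 0.0117 to 0.0354 and cytoplasmic shares of 0.157 to 0.459%.

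First introns had a higher median IR ratio than later ones. Their median was 0.0172 in sgERH CHX, 0.0471 in sgAAVS1 CHX, 0.0381 in sgERH DMSO and 0.0521 in sgAAVS1 DMSO nuclei, against 0.0081, 0.0268, 0.0176 and 0.0271 for later introns of canonical transcripts. Reads crossing the exon-intron boundaries were unevenly shared between the ends. For every 100 spliced reads, the very long introns had 7.57 ± 0.281 reads across the 5′ boundary in sgERH DMSO and 9.06 ± 0.135 in sgAAVS1 DMSO nuclei, while the 3′ boundary had 14.6 ± 0.223 and 19.9 ± 0.489. The ratio of 5′ to 3′ boundary reads was 0.534 in sgERH CHX, 0.416 in sgAAVS1 CHX, 0.520 in sgERH DMSO and 0.456 in sgAAVS1 DMSO nuclei. In introns under 1 kb it was 0.754, 0.802, 0.805 and 0.820, so the boundaries were nearer to equal there. Within the very long introns it was lowest in first introns, at 0.442, 0.219, 0.377 and 0.249 in the 4 groups. The part of such uneven reads in the higher IR ratio of first introns was not tested.

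**Figure D2:**
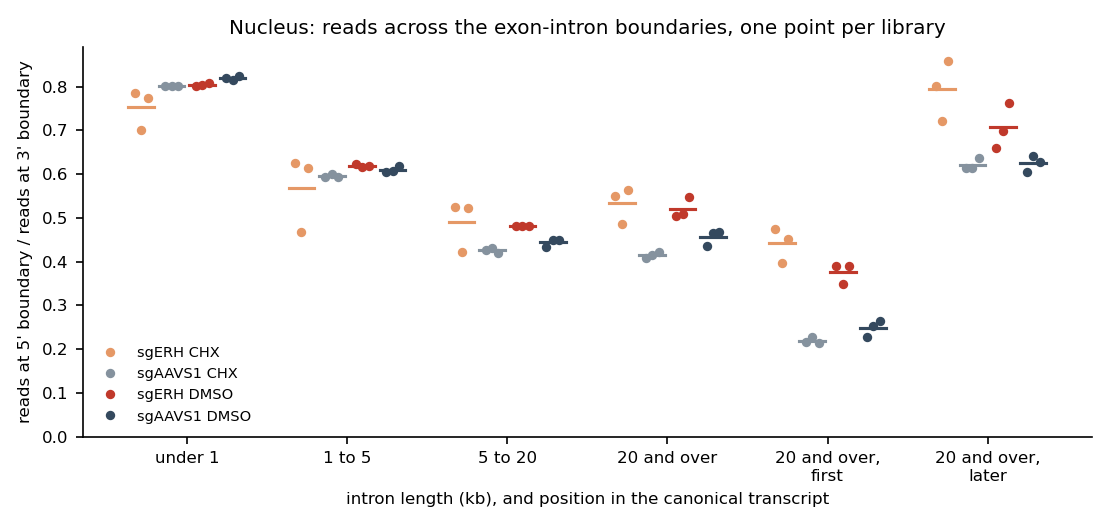
Ratio of reads across the 5′ boundary to reads across the 3′ boundary in nuclear libraries, by intron length class and for first and later very long introns. Each point is 1 library, each bar the mean of 3, and a ratio of 1 would mean equal reads at both ends; first introns lie lowest, at a mean of 0.377 in sgERH DMSO and 0.249 in sgAAVS1 DMSO nuclei.

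In the cytoplasm the very long introns were nearly always without coverage. Their median IR ratio was 0 in all 12 libraries, and 79.1 to 91.8% of them had a depth of 0 in a given library. An IR ratio of at least 0.05 was reached by 0.287 ± 0.0531% of them in sgERH CHX, 0.157 ± 0.0476% in sgAAVS1 CHX, 0.459 ± 0.0236% in sgERH DMSO and 0.173 ± 0.0446% in sgAAVS1 DMSO cytoplasm. Every sgERH DMSO library lay above every sgAAVS1 DMSO library in this share. Introns under 1 kb had 4.13, 3.77, 4.98 and 4.21% in the same groups. Mitochondrial mRNA, summed over 4 genes, moved with these groups, at 30603 CPM in sgERH DMSO and 21280 CPM in sgAAVS1 DMSO cytoplasm, as did nuclear-retained RNA, at 629 and 378 CPM, and their part in the shares was not tested.

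Nucleus and cytoplasm were compared in sgAAVS1 cells with DMSO by edgeR's quasi-likelihood test of intron depth against spliced reads, fitted over all introns with calls at a p adjusted by Benjamini-Hochberg not above 0.05 and a log2 difference of 1 or more. Of 4451 very long introns tested, 4429 were higher in the nucleus and 0 were lower, against 95.5% of all 101086 introns tested called higher and 0.0772% called lower. At an unadjusted p under 0.05 there were 4429, and DESeq2 called 4411 higher and 0 lower. With boundary reads in place of depth 3909 were higher and 10 lower, and when intron and spliced reads were each scaled by TMM 698 were higher and 35 lower. The depth rounded to 0 in every sgAAVS1 cytoplasmic library for 3919 of the 4429, so that no fold can be given for them, and the median log2 difference of the 512 introns with depth in both fractions was 6.24. In HNRNPC, which encodes a nuclear RNA-binding protein, an intron of 26850 bases outside the canonical transcript had depths of 32.4, 33.1 and 29.0 beside 680, 562 and 500 spliced reads in the nucleus, against depths of 0.18, 0.122 and 0.494 beside 9534, 9957 and 7773 spliced reads in the cytoplasm. Introns of PTP4A2 (a phosphatase), MAP2K1 (the kinase MEK1) and BID (a pro-apoptotic BCL2 family member) followed the same pattern, with nuclear IR ratios between 0.121 and 0.287 and cytoplasmic depths under 0.5 in every library.

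The mean IR ratio in sgAAVS1 DMSO nuclei reached 0.05 in 3379 of the very long introns, 0.1 in 1678, 0.3 in 238 and 0.5 in 65. Under 10% own-junction reads were found for 46.8, 45.5, 53.8 and 58.5% of these, beside 4115 of all 8487. Of the 65, 9 had at least 50% own-junction reads and 61 had an exon on the same strand inside, as did 2911 of the 3379. An intron of CD44, the hyaluronan receptor, and one of TBC1D9B had an IR ratio of 1.00 in all nuclear DMSO libraries because no spliced read touched their ends, with depths of 21.8, 29.0 and 28.02 in sgERH and 16.2, 13.3 and 14.4 in sgAAVS1 nuclei for CD44. The 4 highest introns with spliced reads were in HOXC6 (0.866 in sgERH and 0.905 in sgAAVS1 nuclei), TFPI (0.757 and 0.873), CRYM (0.701 and 0.838) and TLR1 (0.957 and 0.809).

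Among the longest introns with a gene symbol, that of IQCJ-SCHIP1 had 592279 bases and mean IR ratios of 0.161 ± 0.155 in sgERH and 0.143 ± 0.109 in sgAAVS1 nuclei with DMSO. IMMP2L intron 3, in a gene of the mitochondrial inner membrane that spans a common fragile site, had 523672 bases with 0.0219 ± 0.00482 and 0.0320 ± 0.0119, and RAD51B intron 7, in a gene of homologous recombination, had 404679 bases with 0.0353 ± 0.0279 and 0.0712 ± 0.0211. Introns of NAV2 and FRMD4A had a depth of 0 in all of these libraries. Of the genes followed by the study, PIK3C2A, a lipid kinase, held 2 of the very long introns and IFNGR2, a chain of the interferon gamma receptor, held 1. PIK3C2A intron 1 (38041 bases) had IR ratios of 0.000741, 0.0118 and 0.00483 in sgERH and 0.0108, 0.0204 and 0.00415 in sgAAVS1 nuclei with DMSO. The groups overlapped, and depth was too low for these 3 introns to be tested.

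With DMSO, sgERH nuclei were compared with sgAAVS1 nuclei to ask whether very long introns were retained differently after ERH was targeted. Of 5638 very long introns with a mean depth of at least 1, 10 rose (0.177%) and 68 fell (1.21%) in sgERH nuclei, against 1.61% of all 111328 introns tested called higher and 4.54% called lower. Both shares of the very long introns were below those of all introns, although their median change was the more negative (below). The part of read depth in these shares was not tested. The 10 lay in 9 genes and the 68 in 47 genes, and 475 very long introns had an unadjusted p under 0.05. DESeq2 called 5 higher and 24 lower. The median log2 change was -0.46 over the very long introns and -0.37 over all introns tested, and 80.8% of the very long introns had a negative value. When the group mean of the IR ratio also had to reach 0.05 in either group, 7 were higher and 57 lower, against 1.41% and 4.18% of all introns tested.

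This direction depended on the scaling. In the fit above, intron and spliced reads were set against each other within a library, so a change common to all introns is kept. When the intron reads and the spliced reads were each scaled by TMM, the median was -0.05 over all introns and -0.14 over the very long introns. Under TMM 23 very long introns were called higher and 6 lower, so 20.7% of the calls were lower in place of 87.2%. All of the 10 higher calls and 6 of the 68 lower calls were also called under TMM. The difference by length was in the same direction under both scalings, with medians of -0.32, -0.37, -0.44 and -0.46 for introns under 1 kb, of 1 to 5 kb, of 5 to 20 kb and of 20 kb or more, and 0.01, -0.04, -0.12 and -0.14 under TMM. Leaving out 1 library gave 25 calls without sgAAVS1 replicate 1, 33 without sgAAVS1 replicate 2, 27 without sgAAVS1 replicate 3, and 35, 31 and 26 without sgERH replicates 1, 2 and 3, all with more lower than higher calls.

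**Figure D3:**
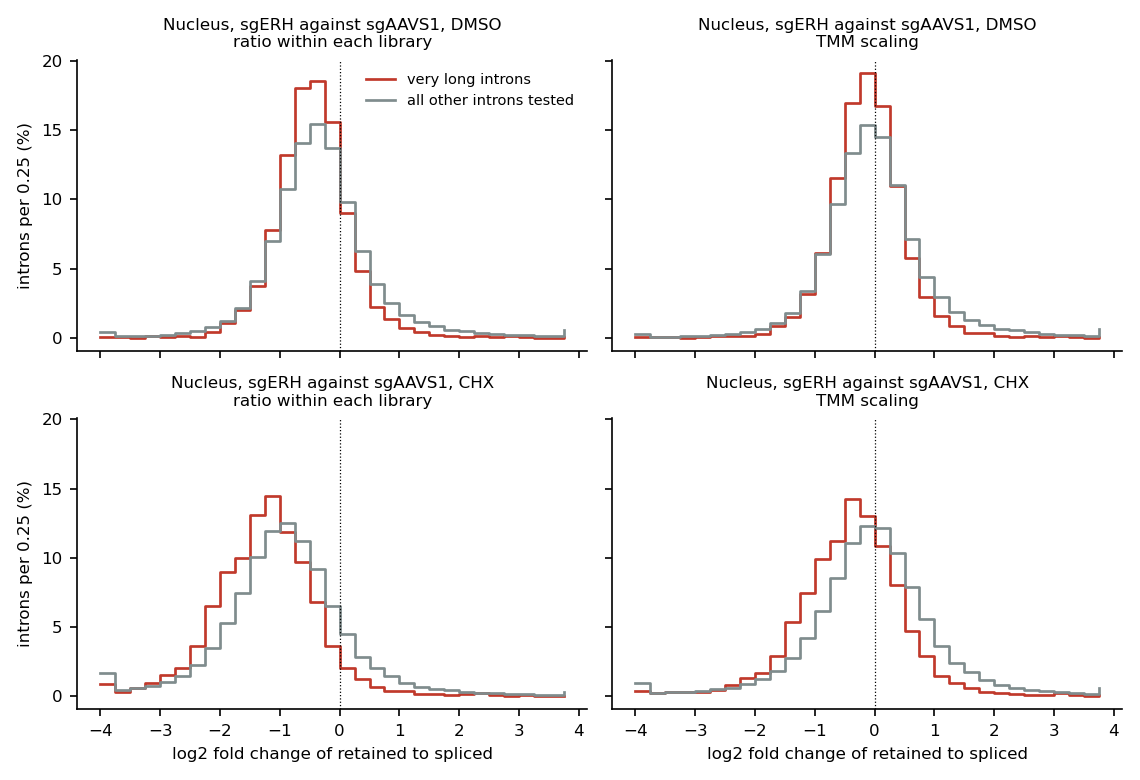
Histograms of the log2 change of intron depth against spliced reads, sgERH over sgAAVS1 nuclei, with DMSO and CHX, as percent of introns per bin of 0.25, with values beyond 4 in either direction in the end bins. Outlines stand for the very long introns and for all other introns tested, with the ratio within a library on the left and TMM scaling on the right; the medians of the very long introns are -0.46 with DMSO and -1.22 with CHX for the ratio within a library, and -0.14 and -0.36 with TMM.

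The introns that rose in sgERH nuclei with DMSO and had a mean IR ratio not below 0.05 lay in 5 genes with a symbol and in loci without one. RNF103-CHMP3, a readthrough locus that joins the ubiquitin ligase gene RNF103 to the ESCRT-III gene CHMP3, had IR ratios of 0.206, 0.208 and 0.179 in sgERH nuclei, against 0.00304, 0.00147 and 0 in sgAAVS1 nuclei. Its intron 2 had depths of 9.34, 12.9 and 11.7 in the 3 sgERH libraries and of 0.0579, 0.0367 and 0 in the sgAAVS1 libraries, which round to 0, so no fold is given (adjusted p = 0.00305, edgeR). It is a minor junction, with 3.64% own-junction reads. The call was also made by DESeq2 and under TMM, but not with boundary reads or with own-junction reads as spliced reads.

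MSH4, a MutS homologue of meiotic recombination, had IR ratios at its intron 7 of 0.409, 0.287 and 0.321 in sgERH nuclei, against 0.131, 0.167 and 0.138 in sgAAVS1 nuclei. Depth there was 41.6, 48.3 and 33.5 in sgERH and 5.12, 5.40 and 4.15 in sgAAVS1 nuclei, with no overlap in either measure. By these values the spliced reads were higher in sgERH nuclei too. The log2 change was 1.63 ± 0.40 (SE, adjusted p = 0.0209, edgeR). The call held in 2 of the 6 fits that left out 1 library. It was also made under TMM and with own-junction reads as spliced reads, but not by DESeq2 or with boundary reads (0.60).
ADCY3, an adenylyl cyclase, was the 1 of these 5 introns read mainly through its own junction (89.4%), with IR ratios at intron 2 of 0.0975, 0.0840 and 0.0924 in sgERH nuclei, against 0.0453, 0.0521 and 0.0413 in sgAAVS1 nuclei. The ranges were apart and the log2 change was 1.09 ± 0.29 (adjusted p = 0.0311), a call lost in all 6 fits that left out 1 library. The intron of STAMBPL1, a deubiquitinase, changed by 1.67 ± 0.40 (adjusted p = 0.0162) and that of MTAP, an enzyme of methionine salvage, by 1.12 ± 0.28 (adjusted p = 0.0212), but each had under 1% own-junction reads. With own-junction reads as the spliced reads, the STAMBPL1 value turned to -1.20, and with boundary reads in place of depth the MTAP value turned to -0.69.

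Among the named introns that fell, ANTXR2, which encodes a receptor for anthrax toxin and extracellular matrix, had the smallest adjusted p. An intron of 25845 bases had IR ratios of 0.0923, 0.0771 and 0.0803 in sgERH nuclei, against 0.350, 0.376 and 0.334 in sgAAVS1 nuclei. Depth was 37.9, 52.2 and 54.3 in sgERH and 174, 136 and 150 in sgAAVS1 nuclei, while spliced reads were 373, 625 and 622 in sgERH and 323, 226 and 300 in sgAAVS1 nuclei. Depth was thus lower and the spliced reads were higher in all 3 sgERH libraries. The log2 change was -2.60 ± 0.20 (adjusted p = 2.91e-06, edgeR) and was also called under TMM, but only 1.90% of the spliced reads came from its own junction.

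CDK8, the kinase of the Mediator complex, had IR ratios at intron 4 of 0.00888, 0.0177 and 0.0245 in sgERH nuclei, against 0.0742, 0.0803 and 0.0786 in sgAAVS1 nuclei. Every sgERH value was below every sgAAVS1 value, and the log2 change was -2.12 ± 0.48 (adjusted p = 0.0153). Here 94.5% of the spliced reads were own-junction reads. The CDK8 call held in 3 of the 6 fits that left out 1 library and was not made by DESeq2 or under TMM. It was made with boundary reads and with own-junction reads as spliced reads.
PIGN, an enzyme of GPI anchor synthesis, had 0.164, 0.169 and 0.139 in sgERH nuclei, against 0.281, 0.525 and 0.455 in sgAAVS1 nuclei, at the last intron of its transcript. The log2 change of -1.88 ± 0.39 (adjusted p = 0.00760) was also called under TMM.
KYAT3, a kynurenine aminotransferase, had 0.0270, 0.0416 and 0.0426 in sgERH nuclei, against 0.103, 0.120 and 0.118 in sgAAVS1 nuclei, and a log2 change of -1.76 (adjusted p = 0.0100). ARID1A, a subunit of the SWI/SNF chromatin remodeller, had 0.254, 0.137 and 0.211 in sgERH nuclei, against 0.483, 0.444 and 0.538 in sgAAVS1 nuclei, at the intron with the GC start and with no own-junction read. Its log2 change was -2.03 (adjusted p = 0.0451), and this call too was lost in all 6 of those fits and under TMM.

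Introns of PSMG4 (a proteasome assembly chaperone), NDUFAF6 (an assembly factor of respiratory complex I), GLB1 (lysosomal beta-galactosidase), C16orf74 and CRIM1 (a transmembrane protein that binds bone morphogenetic proteins) fell by 1.72 to 2.17 on the log2 scale, with adjusted p between 0.0243 and 0.0488 and no overlap between the groups. GLB1 and CRIM1 were read mainly through their own junction (83.0 and 86.4%), PSMG4 not at all. Of the 18 named introns called in this comparison, 5 were called again whichever library was left out (RNF103-CHMP3, ANTXR2, PIGN, KYAT3 and ITGB1), and 7 were called under TMM.

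**Figure D4:**
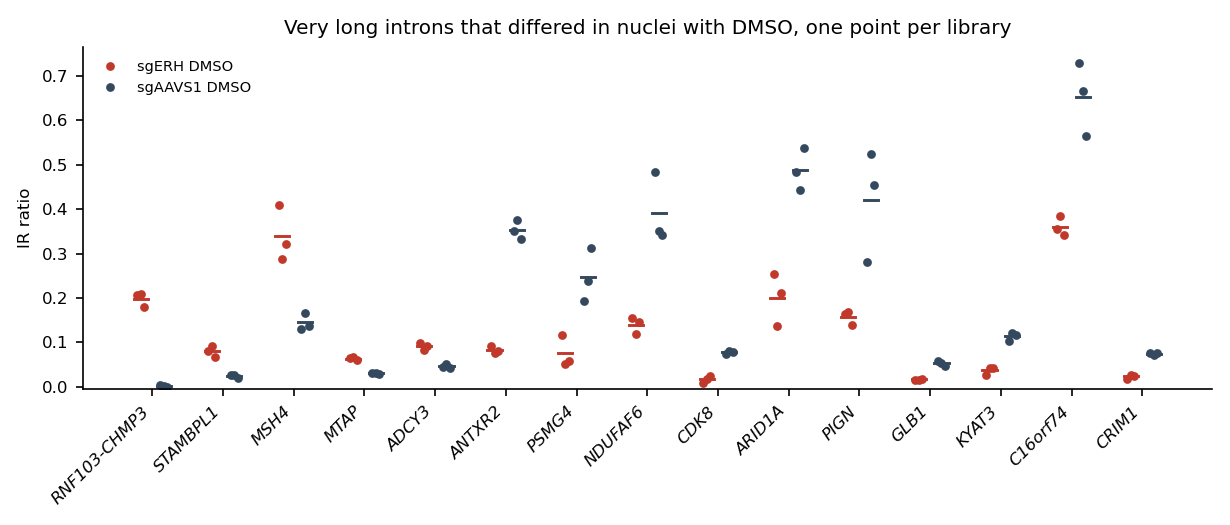
IR ratio (0 to 1, linear axis) of the 15 very long introns with the largest changes called between sgERH and sgAAVS1 nuclei with DMSO, 1 point per library and a bar at the mean of 3, sgERH left of sgAAVS1 for each gene. RNF103-CHMP3, MSH4, STAMBPL1, MTAP and ADCY3 lie higher in sgERH and the others lower, for example ANTXR2 at 0.0771 to 0.0923 against 0.334 to 0.376.

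Gene groups were read by their counts. Of all 5638 very long introns tested 0.177% rose and 1.21% fell in sgERH nuclei with DMSO, shares at which few or no calls fall in lists of this size. None of the 6 lists held an intron that rose. Of 117 introns tested in RNA processing and splicing genes 1 fell, in CSTF3, a subunit of the cleavage stimulation factor (IR ratios of 0.117, 0.174 and 0.220 in sgERH and 0.282, 0.275 and 0.349 in sgAAVS1 nuclei, log2 change -1.11, adjusted p = 0.0447). The CSTF3 call held in 1 of the 6 fits that left out 1 library. It was not made by DESeq2, under TMM, with boundary reads or with own-junction reads as spliced reads. Of 171 in chromatin regulators 2 fell, both in ARID1A, and of 146 in protein kinases 1 fell, that of CDK8. Of 147 in cell adhesion and cytoskeleton genes 1 fell, in ITGB1, the beta 1 integrin, with 0.0903, 0.0828 and 0.0853 in sgERH and 0.160, 0.162 and 0.178 in sgAAVS1 nuclei (log2 change -1.09, adjusted p = 0.00533). Its own-junction share was 0.548%.

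Of 80 introns in DNA replication, repair and mitosis genes 1 fell, intron 13 of KIF18A, a mitotic kinesin, with depths of 0.0243, 0.473 and 0.267 in sgERH and 2.35, 2.16 and 2.18 in sgAAVS1 nuclei (adjusted p = 0.0445). The sgERH depths round to 0, so no fold is given, and 97.4% of the spliced reads were own-junction reads. The KIF18A call was lost in all 6 fits that left out 1 library (adjusted p between 0.0642 and 0.116, edgeR). It was not made by DESeq2, under TMM, with boundary reads or with own-junction reads as spliced reads. It was made with a replicate block and among introns read mainly through their own junction. An intron of BLM, a RecQ helicase, had IR ratios of 0.00531, 0.0109 and 0.00642 in sgERH and 0.0589, 0.0573 and 0.0626 in sgAAVS1 nuclei and did not pass (adjusted p = 0.0785). Of 35 in common fragile site genes 0 were called, and the smallest p belonged to FAF1 intron 8, with 0.0591, 0.0857 and 0.0588 in sgERH and 0.102, 0.152 and 0.137 in sgAAVS1 nuclei (adjusted p = 0.0947).

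With CHX more introns were lower in sgERH nuclei than with DMSO, although ERH RNA overlapped between sgERH and sgAAVS1 nuclei with CHX (above). Of the 5638 very long introns tested, 5 rose and 1351 fell (23.96%, in 743 genes) in sgERH nuclei, against 1.02% of all introns called higher and 27.4% called lower. The median log2 change was -1.22 over the very long introns and -0.94 over all introns, 94.7% of the very long introns had a negative value, and 2359 had an unadjusted p under 0.05. DESeq2 called 4 higher and 595 lower. Under TMM 26 were higher and 41 lower, with medians of -0.36 and -0.06, and the 41 were among the 1351. The count was 664 without sgERH replicate 2, the library that stood apart, 1760 without sgERH replicate 3, 951 without sgERH replicate 1, and 747, 863 and 819 without sgAAVS1 replicates 1, 2 and 3. In 34 of the 1351 the sgERH depth rounded to 0 in all libraries.

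By length, 658 of 2371 introns of 20 to 30 kb fell with CHX (27.8%) and 53 of 285 of 100 kb or more (18.6%). The median log2 change had the other order, at -1.20 for 20 to 30 kb and -1.37 for 100 kb or more. By position, 159 of 868 first introns fell (18.3%, median -1.18) and 443 of 1650 later ones (26.8%, median -1.31). The lists had 17 of 117 RNA processing introns lower (14.5%), 25 of 171 in chromatin regulators (14.6%) and 28 of 146 in kinases (19.2%). Lower too were 29 of 147 in adhesion genes (19.7%), 18 of 80 in DNA replication and repair genes (22.5%) and 2 of 35 in fragile site genes (5.71%). All of these shares lay below the 23.96% of very long introns and the 27.4% of all introns tested. The RNF103-CHMP3 intron rose again, with IR ratios of 0.412, 0.344 and 0.452 in sgERH CHX and 0.240, 0.153 and 0.218 in sgAAVS1 CHX nuclei (log2 change 1.47, adjusted p = 0.0150), but the value turned to -2.35 with own-junction reads as spliced reads, and the call was lost with boundary reads (0.92) and without sgAAVS1 replicate 2 (adjusted p = 0.0848). An intron of SCMH1, a Polycomb protein, had 0.0628, 0.0919 and 0.120 in sgERH CHX and 0.0287, 0.0478 and 0.0575 in sgAAVS1 CHX nuclei (log2 change 1.09, adjusted p = 0.0346), and 88.5% own-junction reads. Its call held in 2 of the 6 fits that left out 1 library, with adjusted p of up to 0.157, and was not made by DESeq2.

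The 4 named introns that fell with CHX had sgERH depths that rounded to 0 in all 3 libraries. The intron of YY1, a zinc finger transcription factor, had depths of 0.121, 0 and 0.440 in sgERH CHX and 1.03, 1.57 and 0.867 in sgAAVS1 CHX nuclei (adjusted p = 0.00668). SCFD2 intron 7 had 0.188, 0 and 0.104 in sgERH CHX and 2.12, 0.790 and 0.833 in sgAAVS1 CHX nuclei (adjusted p = 0.0191). These 2 calls held in every fit that left out 1 library and could test the intron (6 for YY1 and 4 for SCFD2), while those of GFOD2 (adjusted p = 0.0259) and FAM210A (adjusted p = 0.0201) did not. YY1 was also called by DESeq2 and under TMM, but not with boundary reads or with own-junction reads as spliced reads. SCFD2 was called in none of these alternatives, and both were called with a replicate block.

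CHX itself was compared with DMSO in sgAAVS1 nuclei. It raised 228 and lowered 130 very long introns of 5638, against 7.21% of all introns called higher and 6.25% called lower, with a median log2 change of 0.11 over the very long introns and 0.01 over all, while DESeq2 called 101 higher and 42 lower. The calls split by base composition. In the third lowest in GC 109 of 1865 rose and 12 fell, and in the third highest in GC 63 of 1880 rose and 101 fell. Adhesion and cytoskeleton genes had 25 of 147 introns higher (17.01%) and 1 lower, against 4.04% and 2.31% of all very long introns. The 235 very long introns of this list, tested or not, lay in 41 genes. Introns of a gene can share ends and reads, so these calls are not separate events, and no list test was made. Chromatin regulators had 8 of 171 higher (4.68%) and 0 lower, RNA processing genes 2 and 0 of 117, kinases 4 and 0 of 146, DNA replication and repair genes 4 and 2 of 80, and fragile site genes 0 and 2 of 35. First introns had 19 higher and 26 lower of 868, later introns 87 and 33 of 1650. Without sgAAVS1 CHX replicates 1, 2 or 3 the calls numbered 169, 165 and 186, and without sgAAVS1 DMSO replicates 1, 2 or 3 they numbered 164, 181 and 176.

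In each of the 8 named introns the depth rounded to 0 in all libraries of 1 of the groups, so no fold is given. Intron 3 of XRCC4, a partner of DNA ligase IV in end joining, had IR ratios of 0.176, 0.230 and 0.110 in sgAAVS1 CHX and 0.0134, 0.00739 and 0.0173 in sgAAVS1 DMSO nuclei (adjusted p = 0.00434), with 84.4% own-junction reads. RNF103-CHMP3 had 0.240, 0.153 and 0.218 with CHX and 0.00304, 0.00147 and 0 with DMSO (adjusted p = 0.00208), so this intron was called higher both with sgERH and with CHX. Neither call was made with boundary reads or with own-junction reads as spliced reads. CD163L1 intron 4, in a scavenger receptor gene, had 0.218, 0.212 and 0.288 with CHX and 0 in all 3 DMSO libraries (adjusted p = 0.00358). An intron of ATOSA rose as well (adjusted p = 0.0201), a call that held in 3 of the 6 fits that left out 1 library.

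In the other direction, the BID intron had IR ratios of 0.00147, 0 and 0 in sgAAVS1 CHX and 0.287, 0.245 and 0.195 in sgAAVS1 DMSO nuclei (adjusted p = 3.60e-04). In sgERH nuclei it had 0, 0 and 0.00412 with CHX and 0.253, 0.170 and 0.163 with DMSO, the same order. Intron 1 of ADGRL1, the adhesion receptor latrophilin 1, had 0.00292, 0.00281 and 0.00689 in sgAAVS1 CHX and 0.0708, 0.0768 and 0.0772 in sgAAVS1 DMSO nuclei (adjusted p = 0.00293), with 86.7% own-junction reads and a GC content of 55.0%. Introns of TBC1D1, a Rab GTPase-activating protein, and of B4GALNT3, a glycosyltransferase, fell too (adjusted p = 0.0171 and 0.0253). Of the 6 fits that left out 1 library, TBC1D1 was called in 5 and B4GALNT3 in 1. Neither was called with boundary reads, and B4GALNT3 was not called with a replicate block.

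**Figure D5:**
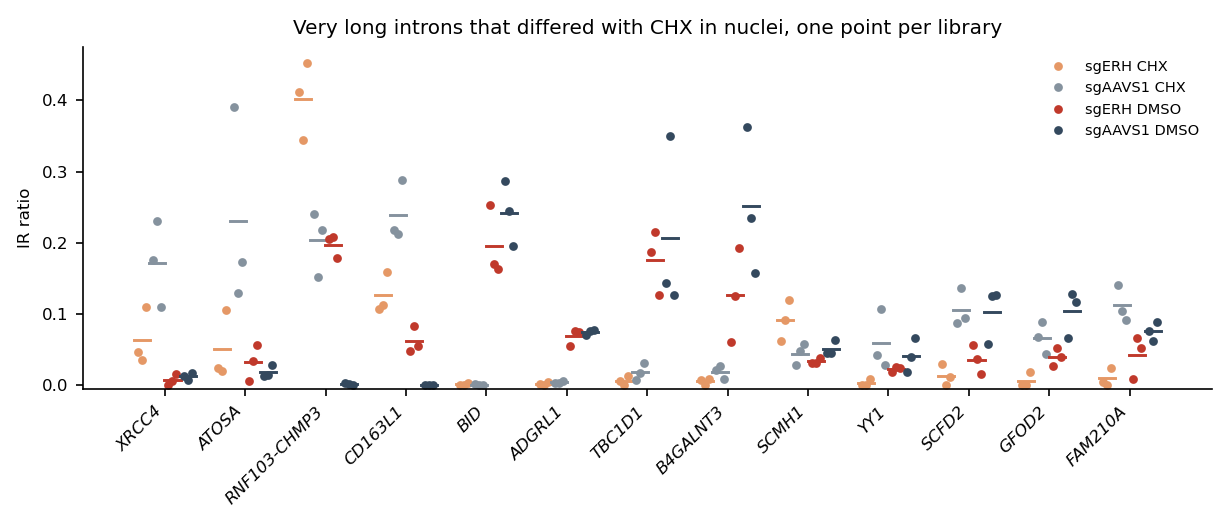
IR ratio (0 to 1) of the named very long introns called between sgERH and sgAAVS1 with CHX or between CHX and DMSO, in nuclear libraries of sgERH CHX, sgAAVS1 CHX, sgERH DMSO and sgAAVS1 DMSO, 1 point per library and a bar at the mean of 3. XRCC4, RNF103-CHMP3 and CD163L1 lie high with CHX in sgAAVS1 nuclei and BID and ADGRL1 near 0, for example BID at 0 to 0.00147 with CHX against 0.195 to 0.287 with DMSO.

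In the cytoplasm 369 very long introns had enough depth to be tested. The minimum mean depth of 1 was taken over all 12 cytoplasmic libraries, so an intron could pass it through the group in which it was high. The part of this in the medians and calls below was not tested. With DMSO 35 rose in 22 genes and 1 fell in sgERH cytoplasm, against 7.21% of all 35737 introns called higher and 0.923% called lower, and the median log2 change was 1.03 over the very long introns and 0.50 over all. In 10 of the 35 the sgAAVS1 depth rounded to 0. It did so in 51 of the 369 tested, and the sgERH depth did so in 19. Over the 312 introns with depth in both groups the median log2 change was 0.98. DESeq2 called 6 higher and 1 lower. Under TMM 13 were higher and 1 lower, with medians of 0.57 and 0.03. Without sgERH replicates 1, 2 or 3 the calls numbered 20, 30 and 23, and without sgAAVS1 replicates 1, 2 or 3 they numbered 21, 25 and 28. Mitochondrial and nuclear-retained RNA were both higher in these sgERH libraries (above), and their part was not tested.

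Intron 1 of ARHGEF17, a guanine nucleotide exchange factor, had IR ratios of 0.185, 0.191 and 0.177 in sgERH cytoplasm with DMSO, against 0 in all 3 sgAAVS1 libraries (adjusted p = 0.00667), with 23, 14 and 20 spliced reads in sgERH and 25, 32 and 20 in sgAAVS1 cytoplasm. Intron 1 of B3GAT1, the glucuronyltransferase that makes the CD57 epitope, had 0.230, 0.106 and 0.133 in sgERH and 0.00755, 0.0205 and 0.0311 in sgAAVS1 cytoplasm (log2 change 2.78 ± 0.56, adjusted p = 0.00859). Both calls held whichever library was left out. Intron 1 of ZDHHC13, a palmitoyltransferase, rose (adjusted p = 0.0218), as did an intron of SHTN1, a protein of neuronal polarity (log2 change 1.69, adjusted p = 0.0254), which had no own-junction read in the nucleus and turned to -1.83 with own-junction reads as spliced reads.

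With CHX 8 rose and 1 fell in sgERH cytoplasm, against 2.89% and 0.756% of all introns, with a median log2 change of 0.59 over the very long introns and 0.25 over all. DESeq2 called 1 higher and 0 lower, and under TMM the split was 2 higher and 8 lower. NAV3 intron 3, in a gene of the neuron navigator family, had depths of 188, 138 and 137 in sgERH CHX and 125, 88.6 and 154 in sgAAVS1 CHX cytoplasm, with IR ratios of 0.0655, 0.0674 and 0.0654 in sgERH CHX and 0.0282, 0.0281 and 0.0322 in sgAAVS1 CHX cytoplasm (log2 change 1.21 ± 0.11, adjusted p = 4.52e-05). With DMSO the same intron had 0.0626, 0.0655 and 0.0655 in sgERH and 0.0327, 0.0369 and 0.0352 in sgAAVS1 cytoplasm. Intron 1 of NTSR1, the neurotensin receptor, had 0.0529, 0.0636 and 0.0452 in sgERH CHX and 0.0134, 0.0135 and 0.0101 in sgAAVS1 CHX cytoplasm (log2 change 2.04, adjusted p = 0.0476), a call lost in all 6 fits that left out 1 library (adjusted p between 0.0870 and 0.154) and with DESeq2. Neither NAV3 nor NTSR1 was called under TMM in this comparison. Leaving out 1 library gave 6 calls without sgERH replicate 2 and 3 calls without any of the other 5.

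In sgAAVS1 cytoplasm CHX raised 45 and lowered 9 of the 369, against 7.47% and 6.69% of all introns, with medians of 0.31 over the very long introns and -0.04 over all. DESeq2 called 9 higher and 0 lower. An intron of TFPI, which inhibits the start of coagulation, had 0.294, 0.437 and 0.431 with CHX and 0.0292, 0.0683 and 0.0488 with DMSO (log2 change 3.47 ± 0.57, adjusted p = 0.00131), none of its spliced reads being own-junction reads. NTSR1 intron 1 fell, with 0.0134, 0.0135 and 0.0101 with CHX and 0.0534, 0.0659 and 0.0541 with DMSO (log2 change -2.27, adjusted p = 0.00191). Introns of the zinc finger genes ZNF155 and ZNF700 fell by 1.90 and 1.83. The calls numbered 28 without CHX replicate 3, 30 and 29 without DMSO replicates 1 and 2, and 37 to 48 without any of the other 3.

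Whether the sgERH effect differed between treatments and between fractions was tested with interaction terms. Between CHX and DMSO in the nucleus, 0 very long introns had a higher and 1 a lower effect with CHX, against 0.000898% of all introns called higher and 0.459% called lower, 354 had an unadjusted p under 0.05, and DESeq2 also called 0 higher and 1 lower. The 1 was MSH4 intron 7, with IR ratios of 0.237, 0.281 and 0.283 in sgERH CHX and 0.408, 0.392 and 0.537 in sgAAVS1 CHX nuclei, the reverse of its order with DMSO (difference of log2 changes -2.79 ± 0.55, adjusted p = 0.0407, edgeR). It was called in 2 of the 12 fits that left out 1 library, and no very long intron was called under TMM. The calls numbered 9 without sgERH CHX replicate 3, 1 without sgERH CHX replicate 2 and 0 without any of the other 10 libraries.

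Between nucleus and cytoplasm with DMSO, 0 very long introns had a higher and 23 a lower sgERH effect in the nucleus, against 0.0178% and 1.74% of all introns, and 255 had an unadjusted p under 0.05. The 23 lay in 13 genes. An intron of KIF2A, a kinesin that depolymerizes microtubules, had IR ratios of 0.258, 0.278 and 0.313 in sgERH and 0.315, 0.258 and 0.195 in sgAAVS1 nuclei, and of 0.0144, 0.0189 and 0.0125 in sgERH and 0.000686, 0.00113 and 0.000452 in sgAAVS1 cytoplasm. The groups overlapped in the nucleus and not in the cytoplasm (adjusted p = 0.04999). BCL2L1, the anti-apoptotic BCL-X gene, had 0.0726, 0.0704 and 0.0794 in sgERH and 0.100, 0.124 and 0.0781 in sgAAVS1 nuclei at intron 2, and 0.00199, 0.00174 and 0.00166 in sgERH and 2.71e-05, 0.000264 and 0.000206 in sgAAVS1 cytoplasm (adjusted p = 0.0381). Introns of DGKZ, a diacylglycerol kinase, and of TASOR2 were called too (adjusted p = 0.0430 and 0.0446). Of the 12 fits that left out 1 library, KIF2A was called in 0, TASOR2 in 1, BCL2L1 in 2 and DGKZ in 3, and DESeq2 called none of these 4. The calls numbered 8, 9 and 12 without sgAAVS1 cytoplasm replicates 1, 2 and 3, 6, 9 and 8 without sgERH cytoplasm replicates 1, 2 and 3, 14 and 15 without sgAAVS1 nucleus replicates 1 and 3, and 17 to 24 without any of the other 4. Under TMM 0 were called, and DESeq2 called 7.

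Host genes were tested with the transcript counts summed per gene, and their CPM were scaled by TMM within a fraction. In the nucleus with DMSO 47 of 2967 genes holding a very long intron rose and 29 fell in sgERH cells (1.58 and 0.977%), against 4.77% of all 17330 genes called higher and 1.73% called lower. In the cytoplasm 66 of 2986 rose and 65 fell (2.21 and 2.18%), against 9.30% and 2.16% of 16130 genes. Of 8 host genes tested whose intron rose in the nucleus 0 were called, and of 47 whose intron fell 1 was higher and 1 lower. MSH4 RNA averaged 7.54 ± 1.23 CPM in sgERH and 10.1 ± 0.822 CPM in sgAAVS1 nuclei (log2 change -0.42, adjusted p = 0.100), and ANTXR2 RNA averaged 385 ± 32.1 and 270 ± 6.45 CPM (log2 change 0.51).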

How the data were processed

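Polyadenylated RNA of 24 nuclear and cytoplasmic libraries was measured. The authors trimmed reads with fastp 0.23.4, aligned them with STAR to GRCh38 and ran IRFinder-S, and deposited for each intron and library the intron depth (a coverage signal per intron base), the counts of spliced and boundary reads, and the IR ratio, a fraction from 0 to 1. Transcript-level expected counts were estimated by the authors with salmon and were summed per gene and rounded here. Depth is an estimate, and uneven coverage, exons inside an intron and shared ends can shift it, and polyadenylated RNA leaves out unfinished transcripts. The IR ratio recomputed from depth and spliced reads differed by over 0.001 in 0 values.

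Introns were tested with edgeR 4.0.16 (R 4.3.3). Rounded depth was set against the larger spliced count with 1 intercept per library and 1 coefficient per group, over all introns with a mean depth plus spliced reads of at least 20 and a mean depth of at least 1. The dispersion trend was estimated from every 5th intron. Calls needed a p, adjusted by Benjamini-Hochberg, not above 0.05 over all introns tested and a log2 change of at least 1. Positions in transcripts came from GENCODE, splice sites from the hg38 sequence. A group whose depth rounds to 0 in its 3 libraries gets no fold. Tested on simulated data with 20000 introns and 200 changed, 132 of the changed were called, all 132 with the right sign, beside 2 unchanged. The simulated introns were of any length, the changed ones were drawn from those of higher depth, and all had the same dispersion. No change common to all introns was simulated. The simulation therefore gives no error rate for very long introns of low depth. DESeq2 1.42.0, TMM scaling, own-junction reads as spliced reads, boundary reads, no minimum depth, a replicate block, leaving out unevenly covered introns, introns with at least 50% own-junction reads (added after seeing the data) and leaving out each library were the alternatives. Replicates are described as biological, and p-values measure the spread between these samples.

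Named introns were, at most 1 per gene with a symbol, those in genes the study followed, the 12 highest in IR in sgAAVS1 DMSO nuclei, the 10 largest increases and decreases among calls with a mean IR ratio of at least 0.05 for sgERH against sgAAVS1 nuclei with DMSO, 4 and 4 for each other comparison, the 5 longest, and 2 per gene list, called or with the smallest p. The introns and lists were chosen with earlier results of these data known.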

Additional observations from a re-analysis of the deposited data

Results flagged for a closer look

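The sgERH effect in the nucleus differed between CHX and DMSO, by the interaction test, in 1 very long intron, that of MSH4, with a difference of -2.79 on the log2 scale (adjusted p = 0.0407, edgeR). Between nucleus and cytoplasm with DMSO it differed in 23, among them those of KIF2A (-5.29), BCL2L1 (-4.95), DGKZ (-4.72) and TASOR2 (-4.57). In these 4 the sgAAVS1 cytoplasmic depth rounded to 0 in every library, so the sizes depend on the prior count and are no bounds. Their adjusted p lay between 0.0381 and 0.04999, and of the 12 fits that left out 1 library KIF2A was called in 0, TASOR2 in 1, BCL2L1 in 2 and DGKZ in 3. None of the 4 was called by DESeq2, under TMM or with the replicate block.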

How the results depend on the processing

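Over fits that left out 1 library, the calls among very long introns numbered 25 to 35 (78 with all libraries) for sgERH against sgAAVS1 nuclei with DMSO, 664 to 1760 (1356) with CHX, 164 to 186 (358) for CHX against DMSO in sgAAVS1 nuclei, 0 to 9 (1) for the treatment interaction, 20 to 30 (36), 3 to 6 (9) and 28 to 48 (54) for the cytoplasmic comparisons of sgERH with DMSO, sgERH with CHX and CHX, 4176 to 4584 for nucleus against cytoplasm and 6 to 24 (23) for the fraction interaction. Host gene calls numbered 73 to 84 in the nucleus and 124 to 132 in the cytoplasm, where 59 higher and 66 lower (125 in all) without sgERH replicate 3 reversed the balance. In the same order of comparisons, DESeq2 gave 29, 599, 143, 7 (cytoplasm, sgERH DMSO), 1 (sgERH CHX), 9 (CHX) and 7 (fraction interaction). TMM scaling gave 29 calls with the balance reversed (23 higher and 6 lower), 67, 0 for the treatment interaction, 14, 10 (2 higher and 8 lower, reversed), 733 (698 higher and 35 lower) for nucleus against cytoplasm and 0 for the fraction interaction. With own-junction reads as spliced reads there were 25, 435, 140, 0, 22, 5, 31 and 6, with boundary reads 729 with CHX, 0 for the treatment interaction and 40 for the fraction interaction, and with no minimum depth 0 for the treatment interaction, 3 and 27 in the cytoplasm with sgERH CHX and CHX. Introns with at least 50% own-junction reads, a choice made after seeing the data, gave 19, 487, 120, 0, 6, 2, 10, 1581 and 0, from fewer introns tested. Directions turned for STAMBPL1 (-1.20), SHTN1 (-1.83) and RNF103-CHMP3 with CHX (-2.35) with own-junction reads, and for MTAP (-0.69) and GFOD2 (0.65) with boundary reads. Where no construction shows the cause, the cause was not tested. Same-numbered samples did not deviate together (correlations of -0.0141 to 0.0324), so the numbers were not taken to pair them. With a replicate block there were 61, 1207 and 297 nuclear calls, 0 for the treatment interaction, 34, 8 and 49 in the cytoplasm, 4427 and 17, and 76 and 133 host genes. Without unevenly covered introns every count stayed within 1.5 times. Of the 8487 very long introns 5638 had the depth to be tested in the nucleus and 369 in the cytoplasm, and PCR reads are not independent molecules.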
